A study of Mus musculus with 10 samples.

Results

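Cd69, the sphingosine-1-phosphate (S1P) receptor genes S1pr1, S1pr2, S1pr3 and S1pr4, the S1P-producing kinase gene Sphk1 and the transcription factor gene Klf2 were followed across Ly6G+ cells of the infarcted mouse heart and of blood. The 7 genes were chosen by name and matched to their Ensembl identifiers, out of 28185 genes in the deposited table, and all 7 passed the filter on low values. RNA was sequenced in 10 libraries from adult male C57Bl/6J mice, 3 days after the left coronary artery was tied to produce a myocardial infarction (MI). The MI group (libraries 13, 19 and 20) held cardiac Ly6G+ cells of infarcted mice that received no cells, and the MI + MSC group (15, 17 and 18) held those of infarcted mice given syngeneic bone marrow mesenchymal stromal cells (MSCs) under the skin soon after ligation. The Blood (21 and 22) and Blood + MSC (23 and 24) groups held circulating Ly6G+ cells of infarcted mice without and with the same injections. Every group was therefore infarcted, cells were taken with Ly6G microbeads, and whether a heart and a blood library share a mouse is not in the labels. The paper describes digestion with warm enzymes for hearts only, so this step and the tissue cannot be told apart between heart and blood. The labels gave no batch other than the group, so a batch and a group cannot be told apart.

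S1P is a lipid signal that is abundant in blood and scarce inside tissues, and cells that carry S1P receptors read this gradient when they leave a tissue. CD69 is a C-type lectin that appears on leukocytes soon after activation and binds S1PR1, which takes the receptor off the cell surface, so that CD69 is known for holding lymphocytes in tissue. KLF2 is a zinc finger factor of quiescent lymphocytes and endothelium that drives transcription of S1PR1, and SPHK1 phosphorylates sphingosine to S1P. S1PR1 and S1PR3 are prominent in endothelium and S1PR4 in blood leukocytes.

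The libraries differed in depth, from 148594 reads on genes in MI 13 and 268860 in Blood 21 to 8602711 in Blood + MSC 24. Each read in MI 13 counted for 8.40 normalized counts and each in Blood 21 for 7.07, whereas the range elsewhere was 0.168 to 2.30. A count of 3 reads, the limit that a count of 0 allows, equalled 25.2 normalized counts for MI 13 and 21.2 for Blood 21, and this limit covers counting error only. Ly6g, which encodes the antigen used for enrichment, ranged from 4.75 to 26.9 normalized counts over the 6 cardiac libraries and from 41.2 to 645 over the 4 from blood. The summed level of 14 neutrophil markers was 2555 to 13566 in heart and 16766 to 53440 in blood. The sum of 12 monocyte and macrophage markers was 5160 to 19646 in heart and 11247 to 22850 in blood. Cardiac libraries also held transcripts of 8 cardiomyocyte markers (1220 to 9430 in sum) and of 10 endothelial markers (503 to 2345). Blood 21 held 25315 normalized counts of 7 platelet markers. In bulk RNA, fewer cells of a type and less RNA per cell cannot be told apart.

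The sequences upstream of 4 of the called genes are shown because these genes moved in opposite directions between heart and blood. They are credited to RefSeq (table on GRCm38.p6, 250 bases before each start) and were located in GRCm39 by their single exact match. Cd69 and S1pr1 had no entry, and Sphk1 had 5 alternative starts. Stretches in annotated exons were left out, except for a short one of Klf2. For Klf2 (chr8:73072778-73072807, plus strand, in the first annotated exon), capitals mark a MEF2 site. For S1pr2 (chr9:20888090-20888339, minus strand, in an intron of longer transcripts), capitals mark TGACGTCA. For S1pr3 (chr13:51562404-51562653, plus strand, in an intron of a longer transcript), capitals mark a MEF2 site. For S1pr4 (chr10:81335972-81336100, minus strand, between genes), capitals mark CCACCC read on the opposite strand.
Klf2: tataccgcggCTAAATTTAGgctgagcccg
S1pr2: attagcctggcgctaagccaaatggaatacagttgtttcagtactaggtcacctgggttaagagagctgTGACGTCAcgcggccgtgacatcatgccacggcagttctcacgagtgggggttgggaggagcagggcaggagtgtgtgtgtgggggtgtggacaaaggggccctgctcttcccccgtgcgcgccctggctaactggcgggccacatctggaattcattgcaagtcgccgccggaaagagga
S1pr3: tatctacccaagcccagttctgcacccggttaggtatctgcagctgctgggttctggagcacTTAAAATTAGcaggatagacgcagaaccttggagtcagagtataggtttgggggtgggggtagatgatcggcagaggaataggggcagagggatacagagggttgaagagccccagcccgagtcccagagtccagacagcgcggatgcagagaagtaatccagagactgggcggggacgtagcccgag
S1pr4: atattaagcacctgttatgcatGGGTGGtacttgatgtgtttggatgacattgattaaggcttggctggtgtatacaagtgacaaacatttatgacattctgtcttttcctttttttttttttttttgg

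Both strands of the 250 bases were searched for a MEF2 site, an NF-kB site, the KLF core CCACCC, the AP-1 site TGANTCA and the CREB site TGACGTCA, and no matches overlapped in these windows. Among 32851 windows of the same length, 2.92% held a MEF2 site, 7.25% an NF-kB site, 28.1% the KLF core, 6.75% the AP-1 site and 1.55% the CREB site. The MEF2 site of Klf2 lay 118 to 109 bases before the start and that of S1pr3 188 to 179 bases before it. Klf2, S1pr3 and S1pr4 held the KLF core, and S1pr2 held the CREB site. These matches describe letters in a window and were not tied to any value below.

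Values are normalized counts, that is, reads on a gene divided by the size factor of the library. Cd69 (ENSMUSG00000030156, chr6:129244288-129252399, minus strand, GRCm39) stood at 16.8, 76.9 and 66.4 in the MI libraries and at 364, 236 and 107 in the MI + MSC libraries. In blood it stood at 63.6 and 33.8 without MSCs and at 33.9 and 31.6 with them. The 3 MI + MSC libraries lay above all 7 others, whereas MI, Blood and Blood + MSC overlapped. By group the mean was 236 ± 128 (SD, n = 3) in MI + MSC, 53.4 ± 32.1 (n = 3) in MI, 48.7 ± 21.1 (n = 2) in Blood and 32.8 ± 1.59 (n = 2) in Blood + MSC. The MI 13 value rested on 2 reads.

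S1pr1 (ENSMUSG00000045092, chr3:115504071-115508721, minus strand), the main egress receptor, stood at 185, 188 and 225 in MI and at 130, 87.2 and 144 in MI + MSC. In blood it stood at 70.7 and 63.0 without MSCs and at 33.9 and 70.7 with them. Every MI library was above every MI + MSC library, and every cardiac library was above every blood library.

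S1pr2 (ENSMUSG00000043895, chr9:20873657-20914139, minus strand) encodes a receptor that restrains migration. Its MI libraries stood at 50.4, 171 and 120 and its MI + MSC libraries at 193, 91.8 and 207. In blood it was at 77.7 and 39.0 without MSCs and 26.8 and 38.4 with them. The lowest MI library, MI 13 with 6 reads, fell within the range of blood. S1pr3 (ENSMUSG00000067586, chr13:51561702-51576833, plus strand) was low. Its MI libraries stood at 16.8, 30.8 and 37.6, its MI + MSC libraries at 18.9, 13.8 and 26.4, its Blood libraries at 0 and 3.90 and its Blood + MSC libraries at 2.63 and 3.70. The cardiac libraries lay above the blood libraries, but Blood 21 had 0 reads, which allows up to 21.2 normalized counts.

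S1pr4 (ENSMUSG00000044199, chr10:81333581-81335966, minus strand), a receptor of hematopoietic cells, had the reverse pattern. It stood at 8.40, 17.3 and 13.4 in MI and at 7.44, 9.18 and 5.42 in MI + MSC, whereas the Blood libraries stood at 63.6 and 194 and the Blood + MSC libraries at 55.7 and 47.8. Every blood library was above every cardiac library. Klf2 (ENSMUSG00000055148, chr8:73072726-73075502, plus strand) was the most abundant of the genes, with MI libraries at 311, 380 and 525, MI + MSC libraries at 581, 859 and 437, Blood libraries at 2261 and 1504, and Blood + MSC libraries at 1986 and 1308. It too was higher in every blood library than in any cardiac library. Sphk1 (ENSMUSG00000061878, chr11:116421751-116427501, plus strand) had the lowest mean over the 10 libraries (11.2). By group mean, S1pr4 was lower than Sphk1 in MI and MI + MSC, and S1pr3 was lower in Blood. Sphk1 had MI libraries at 25.2, 13.5 and 18.5, MI + MSC libraries at 11.5, 11.5 and 14.9, Blood libraries at 7.07 and 4.55, and Blood + MSC libraries at 2.10 and 2.86. Its cardiac libraries lay above its blood libraries, with 1 read in Blood 21 and 3 reads in MI 13.

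**Figure D1:**
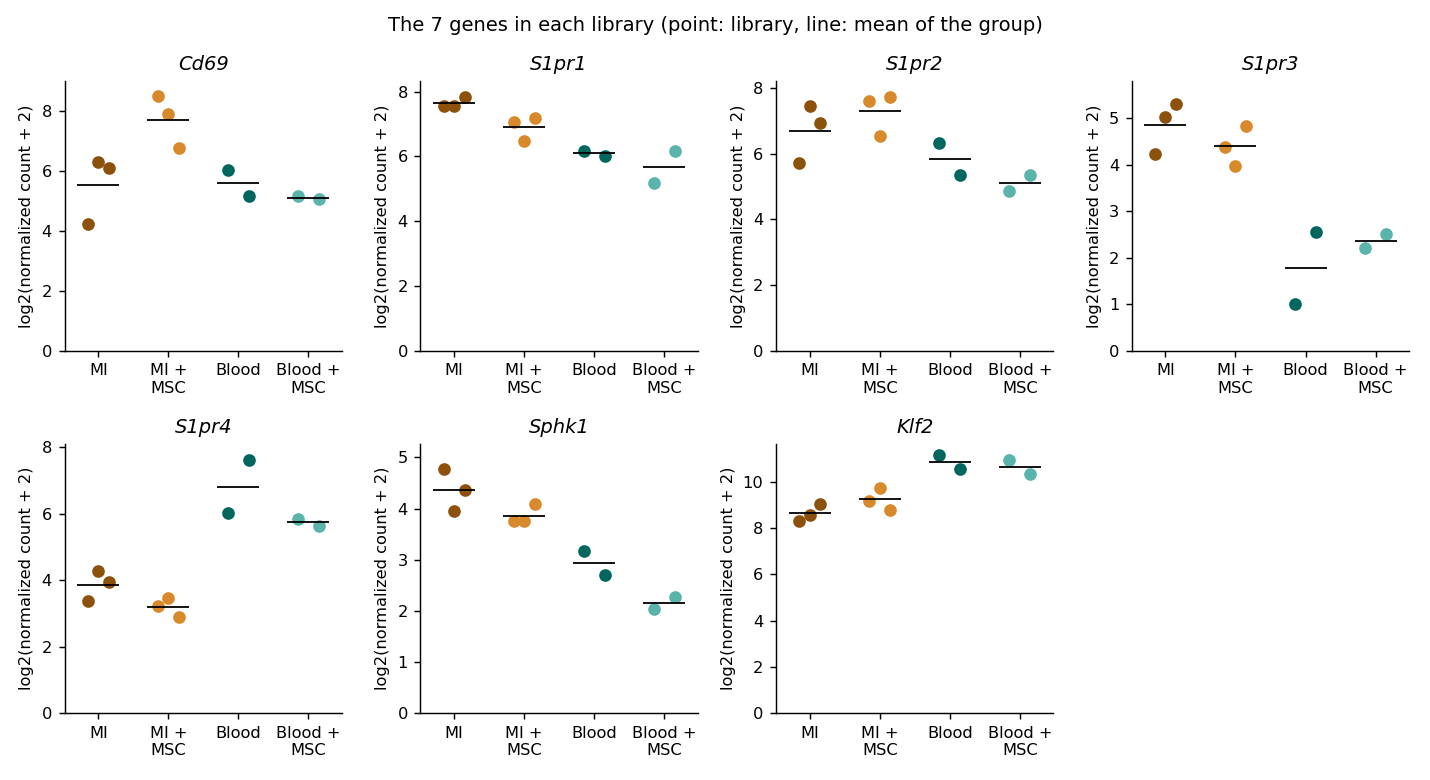
Each panel plots log2(normalized count + 2) of 1 gene for the 10 libraries, with points for libraries and a line for the mean of each group. The 3 MI + MSC libraries are the highest for Cd69, and S1pr4 and Klf2 are higher in all 4 blood libraries than in the 6 cardiac libraries.

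Levels per kilobase of exon, a rough way to compare genes within a group, gave different orders in heart and blood. The length held all annotated exons of a gene, 10170 bases for S1pr2 and 6509 for Cd69 beside 2386 for S1pr4 and 2136 for Klf2. A gene with exons that these cells do not use would read low. In Blood, Klf2 stood at 881 ± 251 normalized counts per kilobase (SD, n = 2), followed by S1pr4 at 53.9 ± 38.5 and S1pr1 at 16.2 ± 1.31. Cd69 at 7.48 ± 3.24 was close to S1pr2 at 5.74 ± 2.69. It was above S1pr2 in Blood 21 (9.77 against 7.64, on 9 and 11 reads) and in Blood 22 (5.19 against 3.83). Sphk1 (1.05 ± 0.321) and S1pr3 (0.399 ± 0.565) were lowest. In MI, Klf2 at 190 ± 51.3 (n = 3) was followed by S1pr1 at 48.3 ± 5.43, and S1pr4 at 5.46 ± 1.87 was close to S1pr3 at 5.81 ± 2.17. By mean per kilobase, S1pr1 was thus the highest receptor gene in MI and S1pr4 in Blood. S1pr4 was above S1pr1 in Blood 22 (81.1 against 15.2) and in Blood 21 (26.7 against 17.1), there on only 9 and 10 reads. In MI + MSC, Cd69 (36.2 ± 19.7) and S1pr1 (29.1 ± 7.14) came next after Klf2 (293 ± 100) and did not differ beyond their spread. S1pr2 at 16.1 ± 6.20 did not differ from S1pr1 beyond their spread either. Before division by length, the S1pr2 mean was above that of S1pr1 in MI + MSC (164 against 120 normalized counts). Blood + MSC kept the order Klf2 (771 ± 224, n = 2), S1pr4 (21.7 ± 2.34) and S1pr1 (12.6 ± 6.29).

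The comparison of heart with blood asked how Ly6G+ cells taken from the infarct differ from circulating ones. Without MSCs, S1pr1 and S1pr3 were higher in MI than in Blood, and S1pr4 and Klf2 were lower. Genes were called at a Benjamini-Hochberg adjusted p under 0.05 over 11549 genes in limma, and a difference of at least 0.5 on the log2 scale. On the log2(normalized count + 2) scale, S1pr3 differed by 3.08 (SE 0.62, adjusted p = 0.00412) and S1pr1 by 1.55 (SE 0.35, adjusted p = 0.00682). S1pr4 differed by -2.96 (SE 0.50, adjusted p = 0.00162) and Klf2 by -2.21 (SE 0.41, adjusted p = 0.00268). Sphk1 at 1.41 (adjusted p = 0.0577) and S1pr2 at 0.86 (adjusted p = 0.222) did not pass, and Cd69 stood at -0.05 (95% interval -1.43 to 1.32, adjusted p = 0.953). So 2 of 7 genes were called higher and 2 lower, where 21.2% and 13.5% of all genes tested were (2452 and 1556 genes, or 3778 and 812 when libraries were scaled by their totals). Groups did not overlap for 5 of the 7 genes and for 55.2% of all genes.

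Without the shallow MI 13 and Blood 21, the same 4 genes were called, S1pr2 passed as well at 1.83 (adjusted p = 0.0136) and so did Sphk1 at 1.44 (adjusted p = 0.0487). Cd69 then stood at 1.04 (adjusted p = 0.161), so its direction between MI and Blood depended on these libraries. Cell type markers moved with the same groups. The summed endothelial markers were 2158 to 2345 in MI and 128 and 1653 in Blood, where 4 of the 10 were at 0 in Blood 21 and its sum came mostly from Vwf and Pecam1, which platelets also carry. The cardiomyocyte sum was 3006 to 9430 in MI and 0 and 23.4 in Blood, and the neutrophil sums were 2555 to 8105 and 44788 to 53440. The monocyte and macrophage sums were 5160 to 15557 in MI and 15151 and 22850 in Blood. The part of these cell types in the differences of S1pr1, S1pr3, S1pr4 and Klf2 was not tested.

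With MSCs, 6 of the 7 genes differed between heart and blood. Cd69 was higher in MI + MSC than in Blood + MSC by 2.61 on the log2 scale (SE 0.63, adjusted p = 0.0197), a ratio of means of 7.20. S1pr2 was higher by 2.20 (SE 0.53, adjusted p = 0.0192), S1pr3 by 2.04 (SE 0.62, adjusted p = 0.0495) and S1pr1 by 1.23 (SE 0.35, adjusted p = 0.0364). S1pr4 differed by -2.54 (SE 0.50, adjusted p = 0.00755) and Klf2 by -1.42 (SE 0.41, adjusted p = 0.0409). Sphk1 at 1.70 (SE 0.53, adjusted p = 0.0533) fell just outside the threshold and S1pr3 just inside it. Thus 4 genes were called higher and 2 lower, against 8.23% and 5.85% of all genes, and the groups of all 7 genes did not overlap, as for 63.5% of all genes.

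These calls rested on few libraries, although every direction was kept in each of the 10 leave-one-out fits. Without Blood + MSC 23 no gene of the 7 was called, without Blood + MSC 24 or MI + MSC 15 only 1 was, without MI + MSC 18 there were 2, without MI 19 or MI 20 there were 3, and without MI + MSC 17 there were 4. The endothelial sum was 503 to 967 for MI + MSC and 81.3 and 88.0 for Blood + MSC, and the neutrophil sums were 2825 to 13566 and 16766 to 23727. The monocyte and macrophage sums were 11098 to 19646 and 11247 to 13179 in the same groups. The part of these cell types was not tested.

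**Figure D2:**
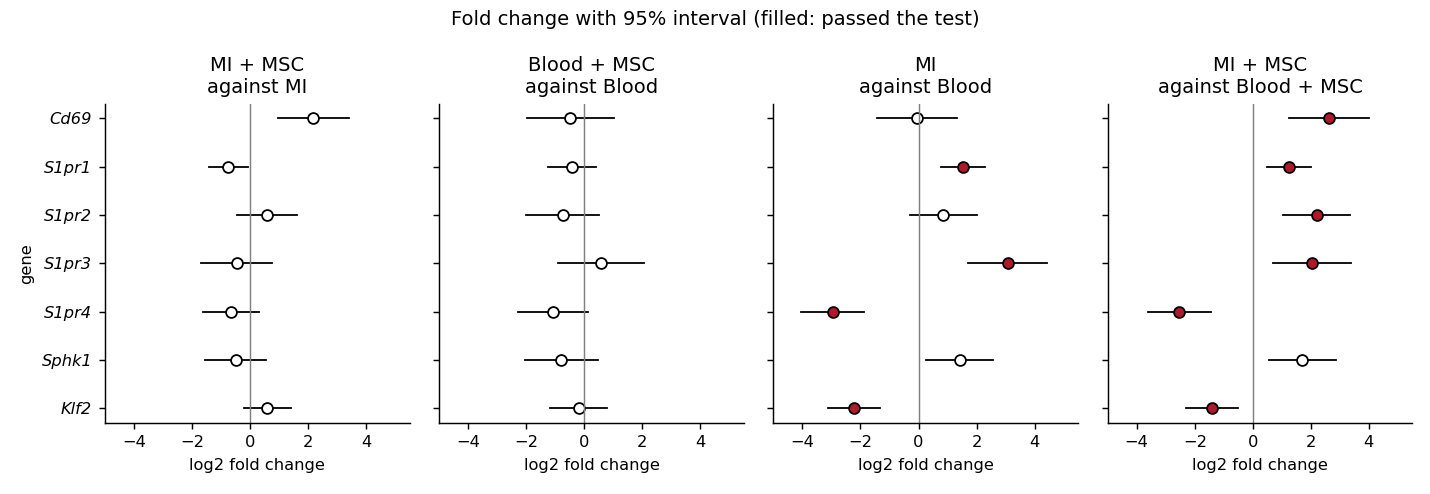
Log2 fold changes of the 7 genes (x axis) with 95% confidence intervals in 4 comparisons, filled where the gene was called by limma. S1pr4 and Klf2 lie left of 0 in both comparisons of heart with blood, and no gene is filled in either comparison of MSC treatment.

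The comparison of MI + MSC with MI asked whether MSCs given at a distance change cardiac Ly6G+ cells. Cd69 had the largest difference of the 7 genes, 2.18 on the log2 scale (SE 0.56, 95% interval 0.95 to 3.42), and its means stood 4.42 to 1. Its unadjusted p was 0.00239 and its adjusted p 0.460, so it was not called. No gene of the 7 and 0% of all genes passed, while 8.01% of all genes, Cd69 and S1pr1 among them, had an unadjusted p under 0.05. Groups did not overlap for Cd69 and S1pr1, as for 16.7% of all genes.

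DESeq2, unlike the other tools for counts, gave a different call for Cd69. On reads recovered from the normalized counts, DESeq2 gave a log2 fold change of 1.97 (adjusted p = 0.0215) over all libraries, where it called 0.182% of genes higher. DESeq2 on the 6 cardiac libraries gave 2.01 (adjusted p = 0.00950) and called 0.459% of genes higher. With array quality weights limma called Cd69 too, at 1.78 (adjusted p = 0.00391), and S1pr4 as lower (adjusted p = 0.0184), but this fit called 2.81% of all genes higher and 6.72% lower. edgeR's quasi-likelihood test (adjusted p = 0.109) and limma-voom (adjusted p = 0.118) did not. Over the 23 alternatives the log2 fold change of Cd69 ran from 1.53 to 2.66 and the adjusted p from 0.00391 to 0.998. Cd69 was also one of the genes that the study singled out from these libraries, so its direction here is not independent evidence. Without MI 13, where it rested on 2 reads, the difference was 1.53 (adjusted p = 0.952).

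S1pr1 stood at -0.74 (SE 0.31, unadjusted p = 0.0340, adjusted p = 0.611) and was negative under all 23 alternatives. S1pr4 at -0.66, Sphk1 at -0.50 and S1pr3 at -0.46 were also below 0, and Klf2 at 0.60 and S1pr2 at 0.60 above it, each with an interval that included 0. Without MI 13 the S1pr2 value was 0.11. The 7 genes had a median of -0.46, beside -0.01 over all genes.

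**Figure D3:**
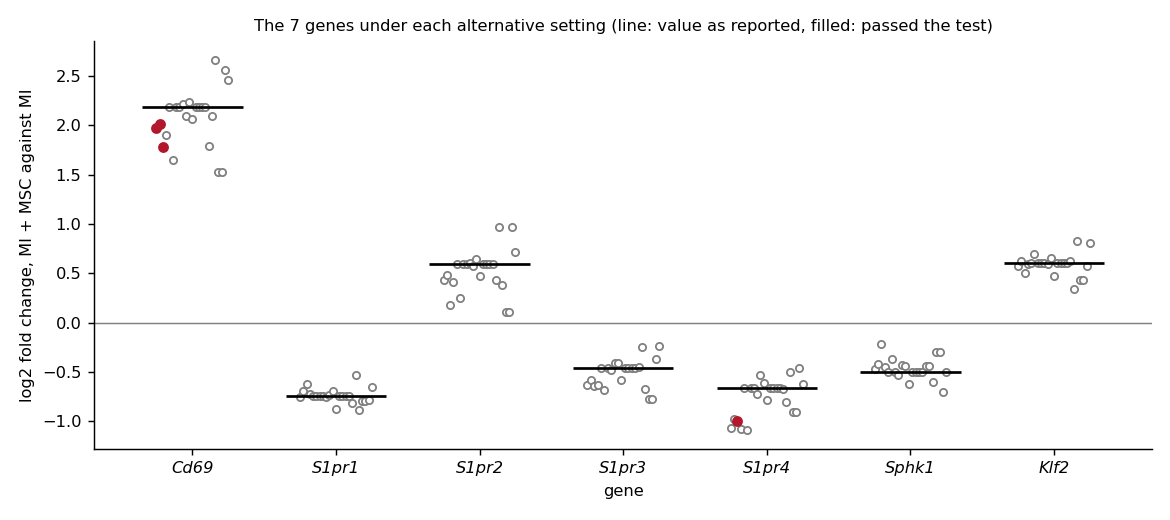
Log2 fold changes of MI + MSC against MI (y axis) for the 7 genes under each alternative setting, with a line at the value given in the text and filled points where the gene was called. Cd69 lies between 1.53 and 2.66 with 3 filled points, S1pr4 has 1, and the other genes have none.

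Markers of other cells moved beside these values. The endothelial sum was 2158 to 2345 in MI and 503 to 967 in MI + MSC, and 8 of 9 tested endothelial markers had a lower value with unadjusted p under 0.05, with a median log2 fold change of -1.61. Cdh5, a junction gene of endothelium, stood at 513, 478 and 510 in MI and at 120, 158 and 233 in MI + MSC. S1pr1 per 100 endothelial normalized counts was 7.89 to 9.62 in MI and 11.2 to 25.9 in MI + MSC, so S1pr1 was lower in MI + MSC by a smaller factor than the marker sum. The pericyte and smooth muscle sum was 1014 to 1219 against 282 to 689 and the cardiomyocyte sum 3006 to 9430 against 1220 to 4620. The eosinophil sum was 114 to 134 in MI and 150 to 530 in MI + MSC, mostly from Siglecf. Both tested eosinophil markers, Siglecf (1.39) and the eotaxin receptor gene Ccr3 (1.68), had a higher value in MI + MSC with unadjusted p under 0.05. Ccr3 stood at 0, 4.81 and 4.12 in MI and at 12.2, 13.8 and 4.75 in MI + MSC. The paper reported Siglecf as higher in cardiac Ly6G+ neutrophils after MSCs, in these libraries and by RT-qPCR. Il5ra, Prg2 and Ear6 of the same list were not tested and were not higher in MI + MSC as a group. In MI they stood at 42.0, 0 and 3.60, at 8.40, 2.88 and 0.515, and at 8.40, 1.92 and 0. In MI + MSC they stood at 0.676, 6.89 and 4.07, at 0.676, 4.59 and 2.03, and at 0.676, 2.30 and 0.678. The MI 13 values rested on 5 reads of Il5ra and 1 read each of Prg2 and Ear6. The comparison of these genes therefore depended on a shallow library. Epx, which encodes eosinophil peroxidase, was not tested; it was at most 2.88 in the 8 libraries with reads of it and had 0 reads in MI 13 and Blood 21, which allows 25.2 and 21.2. The eosinophil sum was also at 400 and 659 in Blood + MSC, with Siglecf alone at 360 and 623, and Cd69 was at 33.9 or less there. The neutrophil sum was 2555 to 8105 in MI and 2825 to 13566 in MI + MSC, the monocyte and macrophage sum 5160 to 15557 and 11098 to 19646, and the T and NK cell sum 41.2 to 227 and 37.2 to 68.9, with none of its 12 genes passing the filter. The sums of platelet markers (462 to 643 in MI and 854 to 1764 in MI + MSC) and of B cell markers (84.0 to 136 and 152 to 177) did not overlap between these groups, with 1 of 7 and 1 of 6 tested genes higher at an unadjusted p under 0.05. The platelet sum came mostly from Pf4 and Ppbp. The platelet list had a median log2 fold change of -0.25 (-1.27 to 1.27) and the B cell list one of 0.51. The part of these cells in the values of S1pr1 and Cd69 was not tested.

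**Figure D4:**
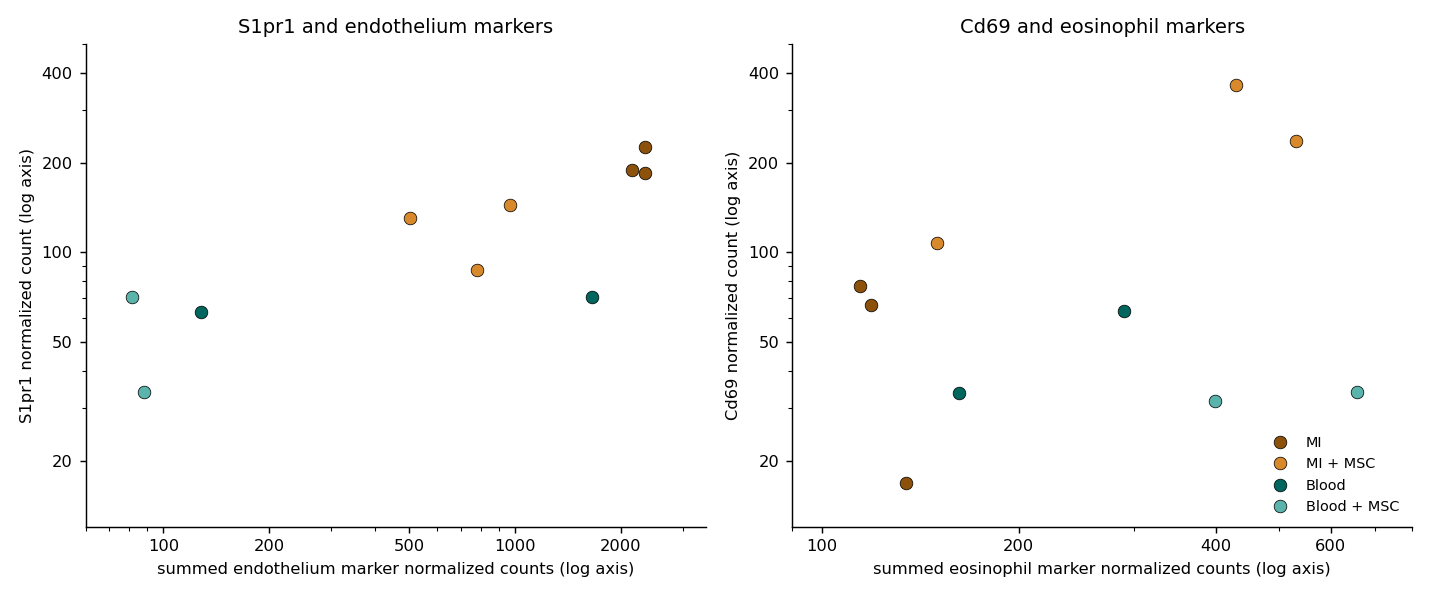
Left, S1pr1 against the summed endothelial markers, and right, Cd69 against the summed eosinophil markers, in normalized counts on log axes with 1 point per library. The MI libraries stand at the top right of the left panel. The Blood + MSC libraries in the right panel have eosinophil sums of 400 and 659, mostly from Siglecf, with Cd69 below 34.

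In blood, MSC treatment gave no call among the 7 genes, and 0% of all genes were called. S1pr4 had the largest difference, -1.08 (SE 0.54, 95% interval -2.27 to 0.11, unadjusted p = 0.0720, adjusted p = 0.679), followed by Sphk1 at -0.79 (adjusted p = 0.772) and S1pr2 at -0.75 (adjusted p = 0.793). The groups of these 3 genes did not overlap, a property shared by 36.4% of all genes with 2 libraries on each side. S1pr3 stood at 0.58, Cd69 at -0.48, S1pr1 at -0.43 and Klf2 at -0.19. No member and 7.34% of all genes had an unadjusted p under 0.05. The Blood value of S1pr4 came from 9 reads in Blood 21 and 298 reads in Blood 22, so the difference depended on which library was kept: it was -1.87 without Blood 21 and -0.29 without Blood 22, and neither passed (adjusted p = 0.910 and 0.793). Neutrophil markers moved with it, from 44788 and 53440 without MSCs to 16766 and 23727 with them, and their part was not tested. DESeq2 on all libraries called none of the 7 either, beside 4 genes higher and 175 lower among all genes.

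The test of whether MSC treatment changed the genes differently in heart and in blood called none of them and 0% of all genes. DESeq2, which called 18 genes higher and 2 lower, gave an adjusted p for Klf2 alone among the 7 (0.318) and none for the other 6 genes, so it made no call on them. Cd69 had the largest value, 2.66 (SE 0.89, 95% interval 0.71 to 4.61, unadjusted p = 0.0118, adjusted p = 0.630), and was the only one of the 7 below an unadjusted p of 0.05, as were 7.26% of all genes. S1pr2 stood at 1.34, S1pr3 at -1.04, Klf2 at 0.80, S1pr4 at 0.42, S1pr1 at -0.32 and Sphk1 at 0.29. The intervals of these 6 genes included 0, so differences in either direction remain possible at this depth.

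The rest of the S1P pathway is described in MI against Blood by lists, whose counts stand beside the 21.2% of all genes called higher and 13.5% called lower. Of 16 tested genes of S1P synthesis and breakdown, 5 were higher in MI than in Blood and 3 were lower, shares near those of all genes, with a median log2 fold change of -0.21 beside 0.15 over all genes. Without MI 13 the list had 5 higher and none lower. Plpp3 (4.78) and Plpp1 (3.93), lipid phosphate phosphatases that break down extracellular S1P, were highest, with Cers4 (3.69), a ceramide synthase, and Smpd4 (2.93), a sphingomyelinase. Sphk2, the other sphingosine kinase gene, was 84.0 to 168 normalized counts in every library and did not pass (-0.64, adjusted p = 0.0854), and the S1P lyase gene Sgpl1 stood at -0.36. Of 5 genes of S1P export and carriers, 2 were higher and 2 lower. With 1 library left out, 1 to 3 were higher and 1 or 2 lower. Spns2, the endothelial S1P exporter, was higher in MI by 3.54, Abcc1 by 1.10, and Mfsd2b, the exporter of red cells and platelets, stood at -3.18 and Abca7 at -1.88. Mfsd2b was at 332 in Blood 21, beside the platelet markers, and at 11.7 in Blood 22, and its difference was -0.88 (adjusted p = 0.404) without Blood 21. Cers4, Plpp1, Smpd4 and Spns2 had 0 reads in Blood 21, and without it Smpd4 (1.83, adjusted p = 0.0657) and Spns2 (2.84, adjusted p = 0.0612) did not pass. S1pr5, the remaining receptor gene, was not tested. It was at most 7.69 normalized counts in 8 libraries and had 0 reads in MI 13 and Blood 21, where the limits given above apply.

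Of 25 tested genes that couple or desensitize these receptors, 5 were higher in MI, a share near that of all genes (21.2%), and 11 were lower, beside 13.5% of all genes (median -1.06). With 1 library left out, 4 to 6 were higher and 8 to 11 lower. Rgs18 (-3.94, and -2.48 without Blood 21), a G protein regulator of platelets, and Rac2 (-2.91), a GTPase of leukocyte migration, were lower, and Rgs1 (3.05), which dampens chemokine and S1P signalling, and Grk3 (2.08), a receptor kinase, were higher. Rgs1 stood at 311, 630 and 851 normalized counts without MSCs in the heart and at 1795, 1318 and 1167 with them, against 26.1 to 142 in the 4 blood libraries. Its MSC difference in the heart was 1.35 with an unadjusted p of 0.0298 (adjusted p = 0.609). Between MI + MSC and Blood + MSC, where 8.23% of all genes were higher and 5.85% lower, 1 gene of synthesis was higher (Plpp3, by 3.68), export genes were called in 1 gene each way, and coupling genes in 2 higher, about the share of all genes, and 6 lower, Rgs1 among the former at 4.47. The coupling counts ran from 1 to 3 higher and 1 to 10 lower with 1 library left out. Limma called none of these 46 genes for MSC treatment in the heart, where 7 had an unadjusted p under 0.05, or in blood, where 2 did. DESeq2 on all libraries called Plpp3 in the heart and Acer2, Mfsd2b, Rgs10 and Rgs18 in blood, and DESeq2 on the groups compared called Plpp1, Plpp3 and Rgs1 in the heart and Rgs18 in blood. The blood calls had their highest value in Blood 21, the library rich in platelet markers, where Acer2 stood at 276 against 5.20 in Blood 22, Rgs10 at 869 against 64.3 and Rgs18 at 1738 against 231.

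**Figure D5:**
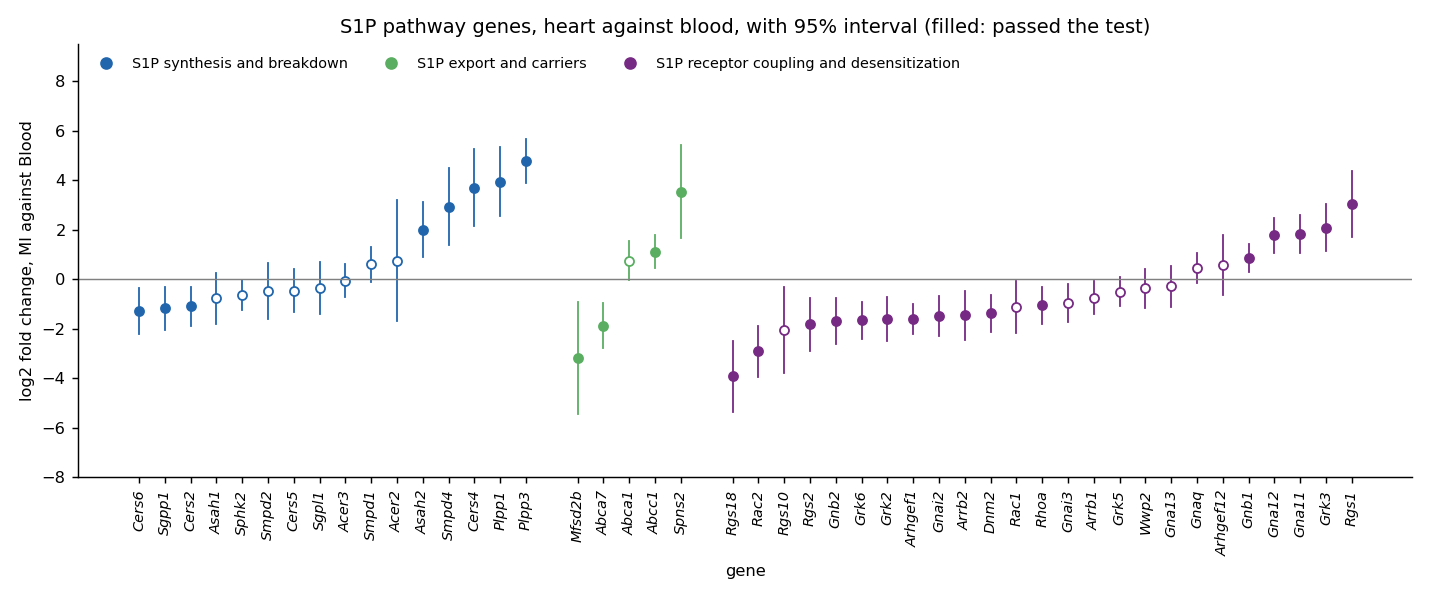
Log2 fold changes of MI against Blood with 95% confidence intervals for tested genes of S1P synthesis, export and receptor coupling, filled where called. Plpp3 is highest at 4.78 and Rgs18 lowest at -3.94.

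Genes tied to CD69 and KLF2 were described in the same way, again beside 21.2% of all genes higher and 13.5% lower. The lists are short, so 1 or 2 calls move their shares by much. Of 8 tested genes for ligands and partners of CD69, 1 was higher and 4 were lower in MI than in Blood, namely the ligand genes Myl9 (-3.51), S100a8 (-3.12), S100a9 (-3.06) and Myl12b (-2.47). S100a8 and S100a9 are also on the list of neutrophil markers, of which 10 of 12 tested genes were lower in MI. The part of neutrophils in their difference was not tested. Myl9 stood at 3081 in Blood 21 and 53.9 in Blood 22, against 28.8 to 41.7 in MI, and its difference was -0.62 (adjusted p = 0.372) without Blood 21. Without that library only S100a8 of the 4 was called, and the counts ranged from 0 to 2 higher and 1 to 3 lower when any 1 library was left out. Slc3a2, part of an amino acid transporter that associates with CD69, was higher by 1.12 in MI and by 1.61 in MI + MSC against Blood + MSC, and was not called without Blood 21 in the first (adjusted p = 0.0769) or without Blood + MSC 23 or 24 in the second (0.106 and 0.0630). Of 8 tested genes near Cd69 in the C-type lectin cluster, 2 were lower in MI than in Blood, Clec1b (-5.41), a platelet receptor, and Clec7a (-2.93), the beta-glucan receptor dectin-1. Clec1b stood at 1201 in Blood 21 and 38.3 in Blood 22, and without Blood 21 its difference was -2.97 (adjusted p = 0.0798). Of 13 genes known to control Klf2, 3 were higher and 4 lower, with Heg1 at 2.48, Map3k3 at -2.02, Foxo1 at 1.87 and Ccm2 at -1.67 (-0.65 without Blood 22, adjusted p = 0.257). With 1 library left out, 3 or 4 were higher and 2 to 5 lower. Of 7 tested KLF2 targets, 3 were higher and 2 lower, and with 1 library left out 1 to 3 were higher and 1 or 2 lower. Itgb7, an integrin gene, stood at 84.0, 122 and 108 in MI and at 155 and 266 in Blood, the direction of Klf2. Nos3, the endothelial nitric oxide synthase gene, was higher in MI, where it stood at 58.8, 43.3 and 53.5 against 0 reads in both Blood libraries. Il7r, the interleukin-7 receptor gene, was higher by 3.32, with 0 reads in Blood 21 and 62.4 normalized counts in Blood 22, and its difference was 0.81 (adjusted p = 0.407) without Blood 21.

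The genes most like each of the 7 were taken by Pearson's r of log2(normalized count + 2) over the 10 libraries, which share their group differences and depth, so that high values occur by construction among many genes. Cd69 was most like Ehd1 (0.969), Socs1 (0.956) and Cd274 (0.956), which encodes PD-L1. S1pr1 was most like Septin11 (0.979), Luzp1 (0.971) and Tlr3 (0.970), and S1pr2 like Cd93 (0.978), Norad (0.969) and Arhgdia (0.966). S1pr3 was closest to 4930503L19Rik (0.991), Mrtfb (0.990) and Rtl8a (0.989). S1pr4 was closest to Wfdc21 (0.984), Ifitm6 (0.983) and Gk (0.979), and Sphk1 to Pkn3 (0.981), Sox4 (0.978) and Cdc42bpa (0.974). Klf2 was closest to Arid5a (0.986), Snap23 (0.985) and Sc5d (0.979). Over the 6 cardiac libraries alone, Cd69 was nearest to Sqstm1 (0.997), Cd300a (0.994) and Zfp622 (0.992), and S1pr1 to Nsd2 (0.988), Epb41l2 (0.984) and Fbrsl1 (0.983). In the heart S1pr2 was nearest to Tmem69, Hfe and Rpsa, S1pr3 to Hdlbp, Rassf4 and AI506816, and S1pr4 to Atg4b, Dock8 and Ifitm6. Sphk1 was nearest there to Stc1, Mier2 and Banf1, and Klf2 to Gpank1, Fosl2 and Lmnb1, with values from 0.976 to 0.999 over these 5 genes. Among the 7 themselves, S1pr1 and Sphk1 ran together over the 10 libraries (0.915) and S1pr3 and Klf2 ran against each other (-0.916).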

How the data were processed

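Ly6G+ cells were enriched with magnetic beads from hearts, after digestion with warm enzymes, and from blood. The sequenced libraries were rRNA-depleted, stranded and paired-end. The authors trimmed reads with Trimmomatic, removed duplicates with Picard, aligned to GRCm39 with STAR, counted with featureCounts, left out mitochondrial reads and divided the counts by DESeq2 size factors. The deposited values are therefore a normalized signal, reads per gene over a size factor, and not raw counts. Both deposited tables held the same 281850 values. All values were whole reads within 0.01 read after rescaling, so reads were recovered for count models.

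Symbols, positions and exon lengths came from GENCODE vM39 on GRCm39, which held 27906 of 28185 identifiers. The 11549 genes whose mean reached 10 normalized counts were tested with limma 3.58.1 (R 4.3.3) on log2(normalized count + 2), with 1 mean per group over all 10 libraries, an intensity trend and Benjamini-Hochberg adjustment. The difference in the MSC effect was called on the adjusted p alone. The fit was also run on simulated reads in which some genes carried a large known change. Smaller changes were not simulated, so that run does not show how often they would be missed. A total of 23 alternatives changed the pseudocount, filter, scaling, weights, libraries or tool (edgeR 4.0.16, DESeq2 1.42.0). The p-values measure the spread between libraries, which the labels do not tie to animals.

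The 7 genes, the gene lists and the marker lists were chosen with earlier results of these data known. Genes were named by rule: the 7 genes, up to 4 called genes per list by size of change, otherwise up to 2 with the highest mean, the 3 genes most alike, and markers that move with a result. Sphk2, Sgpl1, S1pr5, Klf13, Itgb7, Il5ra, Prg2, Ear6 and genes called by DESeq2 alone were named after their values were seen. One gene that the rule names is not reported here.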

Additional observations from a re-analysis of the deposited data

How the results depend on the processing

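The sign of the log2 fold change and the call were kept in 692 of 769 recomputed values of the 7 genes that had an adjusted p, 35 lost and 20 gained the call, and 22 changed sign. No paired analysis was possible because the replicate numbers of the groups are not shared. The number called for MI + MSC against MI was 1 with DESeq2 on all libraries, 1 with DESeq2 on the groups compared and 2 with array weights. For MI + MSC against Blood + MSC it was 3 with no filter and 0 to 7 when 1 library was left out.

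Cd69 in MI against Blood changed sign with DESeq2 (0.42 on all libraries and 0.33 on the groups compared), array weights (0.62), edgeR (0.57), limma-voom (0.83), library total (0.44) and without MI 13 and Blood 21 (1.04), and ranged from -0.49 to 0.60 with 1 library left out. In Blood + MSC against Blood, S1pr3 was -0.078 with DESeq2 on all libraries, -0.049 with edgeR, -0.21 with limma-voom and -0.20 without MI 13 and Blood 21, and ranged from -0.20 to 1.36 with 1 library left out. Klf2 there was 0.10 with library total and 0.10 without MI 13 and Blood 21, and ranged from -0.50 to 0.11, and S1pr1 ranged from -0.94 to 0.080. In the difference of the MSC effects, Sphk1 was -0.053 with library total, S1pr1 ranged from -0.82 to 0.19 and S1pr4 from -0.37 to 1.21. Over the alternatives, the number of all genes called ran from 0 to 1101 in MI + MSC against MI (0 as reported), 0 to 1506 in Blood + MSC against Blood (0), 1700 to 4590 in MI against Blood (4008), 266 to 5378 in MI + MSC against Blood + MSC (1627), and 0 to 1095 in the difference of the MSC effects (0). Library total moved the median of all genes to 0.63 in MI against Blood and to -0.52 in the difference of the MSC effects. The cause of these changes was not tested. Depth limits Cd69, S1pr3, S1pr4 and Sphk1 in MI 13, which held at most 3 reads of each.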

Other observations

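Other activation and trafficking genes of the same libraries were described from lists. Of 21 early activation genes, 6 were higher and 2 lower in MI than in Blood, beside 21.2% and 13.5% of all genes, with Nr4a2 (4.85), Dusp2 (3.53), Tnfaip3 (3.22) and Fosb (3.07) highest. Dusp2 had 0 reads in Blood 21 and stood at 2.02 (adjusted p = 0.142) without it. With 1 library left out, 5 to 8 of the list were higher and 1 or 2 lower, and its median ranged from 0.16 to 1.66. In MI + MSC against Blood + MSC, 8 were higher and none lower by limma (9 and 1 at an unadjusted p under 0.05), beside 8.23% and 5.85% of all genes, and 3 to 10 were higher with 1 library left out. For MSC treatment in the heart limma called none, 7 were higher at an unadjusted p under 0.05, and the median log2 fold change was 0.96 beside -0.01 over all genes. The most abundant of them, Junb (1.36, adjusted p = 0.618) and Dusp1 (1.01, adjusted p = 0.650), did not pass in limma. DESeq2 on all libraries called 1, Nfkbia, and DESeq2 on the groups compared called 5, Dusp2, Junb, Nfkbia, Nr4a1 and Tnfaip3.

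Of 13 other receptors of neutrophil retention and release, 10 were lower and none higher in MI than in Blood (0 higher also at an unadjusted p under 0.05), beside 13.5% and 21.2% of all genes. With 1 library left out, 6 to 9 were lower and at most 1 higher, the fewest without Blood 22 or MI 13. Among them were Cxcr2 at -3.24, Fpr1 at -3.16, Itgal at -2.65 and Selplg at -2.62. Neutrophil markers were lower in the same libraries, and their part was not tested. Of 11 tested members of the KLF family other than Klf2, 2 were higher and 3 lower in MI than in Blood, beside 21.2% and 13.5% of all genes, with Klf4 and Klf9 (1.64) higher and Klf5 (-1.87), Klf3 (-1.79) and Klf13 lower. Without Blood 21 or Blood 22, Klf5 did not pass (adjusted p = 0.124 and 0.123), and without Blood 22 neither did Klf13 (0.154).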
